A study of Drosophila melanogaster with 2 samples.

Results

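The genes described here encode Mediator subunits, the TATA-binding protein associated factors (TAFs) of TFIID, and the factors that carry TfII names in Drosophila melanogaster. They were chosen by symbol alone: every protein-coding gene on a chromosome arm of the BDGP6 annotation whose symbol is MED or Taf followed by a number (with or without a final L for Taf), or begins with TfII. This gave 48 of 13945 protein-coding genes, of which 25 were Mediator genes, 14 were Taf genes and 9 were TfII genes. The data were peak lists from chromatin immunoprecipitation and sequencing of CTCF fused to GFP, made with an antibody against GFP per the description in the labels. A gene was counted as having a CTCF-GFP summit where the highest point of a peak lay within 1 kb of one of its annotated transcript starts.

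All samples belonged to 1 group, whole embryos of mixed sex and 0 to 16 h of age, from a transgenic line that stably expressed CTCF with GFP at its C terminus. Embryos were pooled, so cell types and stages were mixed in each sample. The group held 2 biological replicates, numbered 2 and 3, which share 1 fly line per the labels. No untagged, mutant or treated sample was used here, so the design gave no contrast between conditions, and whether a summit at a member start was particular to CTCF or shared with other open promoters was not tested.

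CTCF recognises DNA through a row of zinc fingers and occupies insulators and many promoters, and in vertebrates it is known for its part in chromatin loops. The general transcription factors assemble with RNA polymerase II on a promoter: TFIID, built of the TATA-binding protein and TAFs, recognises core promoter elements, TFIIA and TFIIB steady it on DNA, and TFIIE, TFIIF and TFIIH bring in and open the polymerase complex. Mediator is the large complex of head, middle and tail modules that relays signals from activators to that machinery. Most of these genes are used widely across cell types, and the measurement here concerns CTCF at their promoters, not their RNA or protein.

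Sequences at 4 of the member summits are shown because they hold the highest signals of the TfII and Taf genes and the promoter match closest to a summit. Each is the stretch within 75 bp of the summit that lies in no annotated exon, read from the RefSeq genome of the dm6 build and printed 5′ to 3′ on the strand of the member gene. In TfIIA-S, the stretch is chr3R:23891061-23891205 on the minus strand, and capitals mark the 9 bases nearest to the CTCF core. The core was searched on both strands in the forms AGAGGGCGC, AGATGGCGC, AGGGGGCGC and AGGTGGCGC. On the strand opposite to TfIIA-S the marked bases differ from the last of these by G8A, counted from 1 at the 5′ end of the core, and their centre is 40 bp from the summit. In TfIIS, the stretch is chr2L:15060803-15060953 on the minus strand, and in Taf1 it is chr3R:6646739-6646888 on the plus strand. Neither of these held the core, also with 1 mismatch allowed, so neither carries capitals. In MED28, the stretch is chr3R:25476916-25477002 on the plus strand, and capitals mark 2 copies of the DNA replication-related element (DRE), TATCGATA, which reads the same on both strands.
TfIIA-S: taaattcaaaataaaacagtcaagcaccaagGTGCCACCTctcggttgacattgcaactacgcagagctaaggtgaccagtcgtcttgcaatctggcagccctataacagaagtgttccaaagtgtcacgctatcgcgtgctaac
TfIIS: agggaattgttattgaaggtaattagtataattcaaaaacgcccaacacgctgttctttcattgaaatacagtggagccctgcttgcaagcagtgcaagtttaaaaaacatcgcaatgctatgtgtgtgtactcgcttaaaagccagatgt
Taf1: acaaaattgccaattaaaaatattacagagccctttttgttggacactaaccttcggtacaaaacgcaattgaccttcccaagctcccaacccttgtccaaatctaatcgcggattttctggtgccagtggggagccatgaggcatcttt
MED28: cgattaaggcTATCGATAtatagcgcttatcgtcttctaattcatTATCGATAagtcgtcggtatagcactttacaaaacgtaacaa

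Tagged CTCF had a summit near a start of 17 of the 48 member genes. The summits came from the list that the authors thresholded by the irreproducible discovery rate (IDR) over both replicates, called reproducible here, which held 5443 peaks. The member share was 35.4% (95% Wilson interval 23.4 to 49.6%), against 27.3% of all 13945 protein-coding genes, or 3813 genes. The background lay inside the members' interval, so no difference was detectable with this number of genes. Intervals cover counting over genes only, and members that share a promoter with another gene are not independent. Among the classes, 3 of 9 TfII genes (33.3%, 12.1 to 64.6%), 4 of 14 Taf genes (28.6%, 11.7 to 54.6%) and 10 of 25 Mediator genes (40.0%, 23.4 to 59.3%) had a summit. These intervals overlapped, and each held the background.

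**Figure D1:**
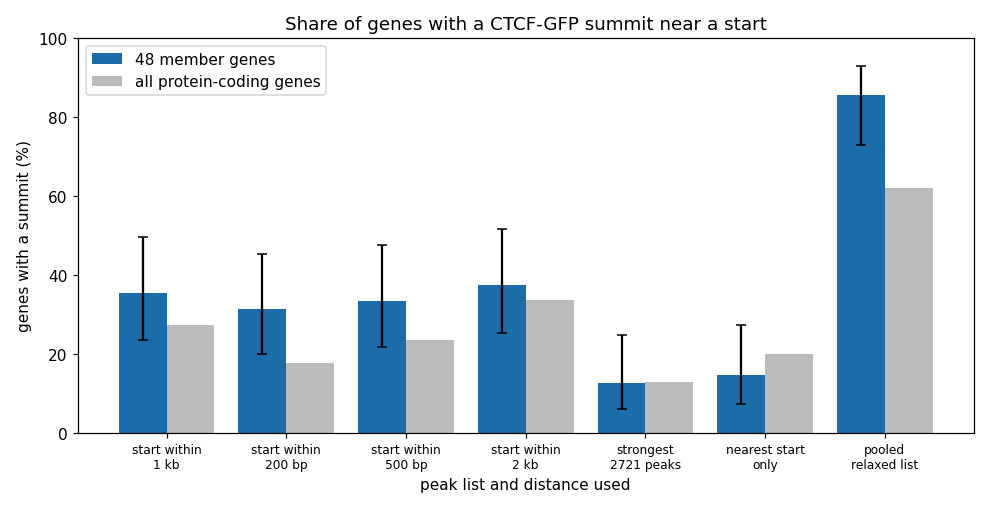
Bars give the percent of genes with a CTCF-GFP summit for the 48 member genes and for all protein-coding genes, by peak list and by the distance allowed between summit and start; error bars are 95% Wilson intervals over the 48 genes. With 1 kb the members stand at 35.4% against 27.3%, and the background falls below the members' interval at 200 bp and in the pooled relaxed list, and inside it in the other settings.

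How near a summit had to be changed the background more than the member count. Within 200 bp, 15 members kept a summit (31.3%, 19.9 to 45.3%) against 17.5% of coding genes, so here the background lay under the members' interval. Within 500 bp it was 16 members, or 33.3% against 23.3%, and within 2 kb it was 18, or 37.5% against 33.5%. The members that dropped out at the closer distances were MED15 and MED17, and the 1 gained at the wider distance was TfIIA-S-2, a paralogue of the small TFIIA subunit. The distance rule cut through an empty range: the farthest member inside it was MED15 at 567 bp, and the nearest outside were TfIIA-S-2 at 1593 bp, MED11 at 2002 bp, Taf10 at 2105 bp and Taf13 at 2451 bp.

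Signal at the members with a summit had a median below that of the list, as it did over all coding genes with a summit. The signal is a score from the authors' peak caller with no stated scale, and it was used to describe and order peaks within a list. Replicate values, each from its own list, were also set side by side without rescaling. Whether a difference between replicates at a gene exceeds a shift between their lists was not tested. At every member the signal equals the value in the list from both replicates pooled. How many reads lie behind each value was not stated in the material used here. Taking the strongest summit of each gene, the members' median was 286 (range 208 to 18192), beside 328 over all coding genes with a summit and 345 over the whole reproducible list, whose lowest value was 195. Of the 17 members with a summit, 6 were among the 2721 strongest peaks (35.3%), beside 46.8% of coding genes with a summit, a difference that was not tested. Over all 48 members that is 12.5%, against 12.8% of coding genes. Those 6 were TfIIA-S, TfIIS, Taf1, MED15, Taf12 and MED10.

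**Figure D2:**
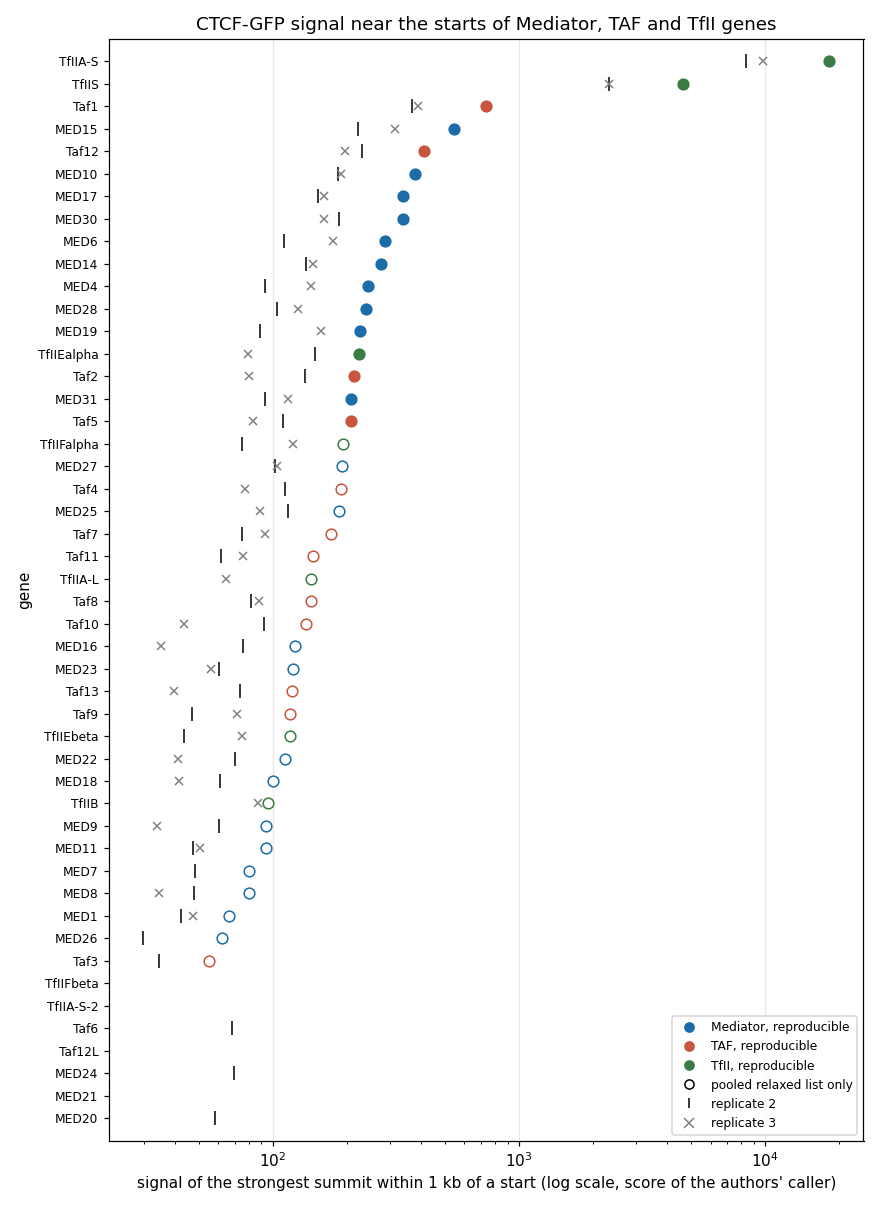
Each row is 1 of the 48 genes and the horizontal axis is the signal of its strongest summit within 1 kb of a start, on a log scale; filled circles are reproducible summits, open circles are summits of the pooled relaxed list only, and ticks and crosses give replicates 2 and 3. TfIIA-S at 18192 and TfIIS at 4650 stand apart from the other 15 members with a reproducible summit, which lie between 208 and 733.

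Of the TfII genes, TfIIA-S had the strongest summit of any member. It encodes the small subunit of TFIIA, which steadies the TATA-binding protein on DNA. Its summit was at chr3R:23891130, 70 bp upstream of the start, in a peak of 977 bp, and its signal of 18192 ranked 154 of 5443. Replicate 2 gave 8392, at rank 166 of its list, and replicate 3 gave 9791, at rank 145, so both placed it near the top and differed by 0.22 on the log2 scale. No other gene started within 1 kb of this summit. A second, weaker summit with a signal of 391 lay at chr3R:23890108, 952 bp downstream of the start and beyond the end of this short gene. Replicate 2 gave 180 there and replicate 3 gave 216, and the nearest start was that of Pli, 56 bp away. The second summit therefore counted for TfIIA-S by the distance rule while standing at the promoter of its neighbour.

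TfIIS encodes the elongation factor that rescues backtracked RNA polymerase II, and its summit was the second strongest of the members. The signal was 4650, rank 488, at chr2L:15060878, 121 bp upstream of the start. The replicates read 2323 (replicate 2) and 2325 (replicate 3), at ranks 481 and 498, the closest match of any member. Starts of solo and of vas, the germline RNA helicase gene, also lay within 1 kb, but the TfIIS start was nearest.

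TfIIEalpha, the gene of the large TFIIE subunit that recruits TFIIH, had a low summit at chr3L:11681949, 89 bp upstream of its start. Its signal was 223, rank 4582, with 148 in replicate 2 and 79.7 in replicate 3. That is a log2 ratio of replicate 3 to replicate 2 of −0.89, the lowest of any member summit, and no other start lay within 1 kb. The other 6 TfII genes had no reproducible summit: TfIIA-L (the large TFIIA subunit precursor), TfIIA-S-2, TfIIB (which bridges polymerase and promoter), TfIIEbeta, and TfIIFalpha and TfIIFbeta, the subunits of the factor that escorts the polymerase.

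Among the Taf genes, Taf1 stood highest. Its product is the largest TAF and a scaffold of TFIID. Its summit at chr3R:6646814, 75 bp upstream of the start, had a signal of 733 and rank 1343. Replicate 2 gave 369 and replicate 3 gave 388, a log2 ratio of 0.07. This was also a promoter with no other start within 1 kb, and its peak, at 246 bp, was narrower than the 436 bp that most member peaks share.

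Taf12, whose product is the histone-fold partner of Taf4, had a signal of 411 at rank 2259, 52 bp upstream of its start. It read 230 in replicate 2 and 196 in replicate 3. The summit was 1 bp from the start of Ho, the heme oxygenase gene, whose start is 53 bp from that of Taf12. Taf2, whose product contacts the initiator element, and Taf5, a core TFIID subunit, were near the bottom of the list. The Taf2 summit had a signal of 213 (rank 4891), with 135 in replicate 2 and 79.7 in replicate 3, and the nearest start was that of CalpB, a calpain gene, at 23 bp. At Taf5 the signal was 208 (rank 5073), with 110 in replicate 2 and 83.4 in replicate 3. For Taf12, Taf2 and Taf5 replicate 2 was the higher one, whereas Taf1 was slightly higher in replicate 3.

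Mediator genes with a summit came from all 3 modules: 5 of 10 head genes, 3 of 8 middle genes and 2 of 7 tail genes. The intervals were 23.7 to 76.3%, 13.7 to 69.4% and 8.22 to 64.1%, and each held the background of 27.3%. None of them approached the signal of TfIIA-S or TfIIS. The highest was MED15, a tail subunit that activators contact, with 543 (rank 1746), 222 in replicate 2 and 313 in replicate 3. Its summit, at chr2L:472446, lay 567 bp upstream of its start and nearer to that of CG4297, at 246 bp. MED14, the scaffold that joins head, middle and tail, had a summit of its own 62 bp upstream of its start, with no other start within 1 kb. It read 276 (rank 3542), with 137 in replicate 2 and 146 in replicate 3.

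In the head module, MED17, a central subunit on which the head is built, read 338 (rank 2784), with 153 in replicate 2 and 161 in replicate 3. MED30 read 337 (rank 2797), with 185 in replicate 2 and 162 in replicate 3. MED17 was thus just above MED30 in the reproducible list but below it in each replicate, so their order is not settled. Both summits were nearer to another gene, CG12321 at 94 bp for MED17 and Rev1, a translesion polymerase gene, at 75 bp for MED30. MED6, a conserved head subunit near the polymerase, read 286 (rank 3400), with 111 in replicate 2 and 176 in replicate 3. Its summit lay 30 bp from 1 of its 5 starts, in the 5′ UTR of a longer MED6 transcript, and 11 bp from the start of Naa80, an acetyltransferase gene.

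MED28 and MED19 were the weakest head genes with a summit. MED28, whose sequence with the DRE copies is printed above, read 238 (rank 4237), with 104 in replicate 2 and 127 in replicate 3, at 71 bp upstream of its start and 17 bp from that of CG4553. MED19 read 227 (rank 4506), at 100 bp downstream of its start and in its 5′ UTR. Replicate 3 read 158 at MED19, but replicate 2 had no summit within 100 bp of it, and its strongest within 1 kb of the start read 88.6. No other member summit lacked a match within 100 bp in a replicate.

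In the middle module, MED10 read 377 (rank 2485), with 184 in replicate 2 and 189 in replicate 3, and its summit lay 25 bp upstream of its start and 21 bp from that of PDCD-5. MED4 read 243 (rank 4126), with 93.0 in replicate 2 and 144 in replicate 3, and the nearest start was that of an antisense RNA, at 27 bp. MED31, a small conserved subunit, read 209 (rank 5032), with 64.1 in replicate 2 and 115 in replicate 3. Among summits matched within 100 bp it had the highest ratio of replicate 3 to replicate 2, 0.85 on the log2 scale, but within 1 kb of its start replicate 2 had a stronger summit that read 92.8. The MED31 summit was 154 bp upstream of its start and 29 bp from that of CG9775. A start of slx1, a nuclease subunit gene, has the same position as the MED31 start, so distance cannot tell these 2 genes apart.

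For 10 of the 17 members with a summit, another gene's start was nearer to it than their own. The member start was nearest in only 7 (41.2%), compared with 2791 of the 3813 coding genes with a summit (73.2%). Counting each summit for the gene of its nearest start alone left 7 of 48 members (14.6%, 7.25 to 27.2%), against 20.0% of coding genes, a setting chosen after the data were seen. The 7 were MED14, MED19, Taf1, Taf5, TfIIA-S, TfIIEalpha and TfIIS. All 3 TfII genes but only 2 of the 10 Mediator genes therefore kept their summit.

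These genes are short and sit close to other genes. Their median length was 1422 bp, against 2166 bp for coding genes, and 35 of the 48 (72.9%) had the start of another coding gene within 1 kb of a start of theirs, against 42.9%. Of the 35 with such a neighbour, 12 had a summit (34.3%), close to 37.8% of coding genes that have a neighbour. Of the 13 without, 5 had a summit (38.5%), beside 19.5% of such coding genes. A single annotated start was the rule, in 42 of 48 members (87.5%) against 73.5%, and 16 of these 42 had a summit (38.1%) against 21.7%. The small numbers in these classes allow no firm order between them.

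Most member summits sat close to the start and upstream of it. From the member's own start, the median distance was 94.5 bp over the 18 summits, 15 lay within 200 bp (83.3%) and 2 were downstream (11.1%), at MED19 and the second summit of TfIIA-S. Every pair of a coding gene and a summit within 1 kb, measured in the same way from the gene's own start, gave a median of 162.5 bp, 56.7% within 200 bp and 18.4% downstream, over 4504 pairs. From the nearest coding start instead, the 18 member summits had a median of 72.5 bp, 17 within 200 bp (94.4%) and 3 downstream (16.7%). The 3219 reproducible summits within 1 kb of a coding start gave 117 bp, 65.0% and 22.1% by that measure. At 13 of the 18 summits (72.2%) another coding gene also started within 1 kb, and at 4, those of MED14, Taf1, TfIIEalpha and the main one of TfIIA-S, no other gene of any kind did. The same counts over the 3219 summits were not made, so whether these shares are particular to the members was not tested.

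**Figure D3:**
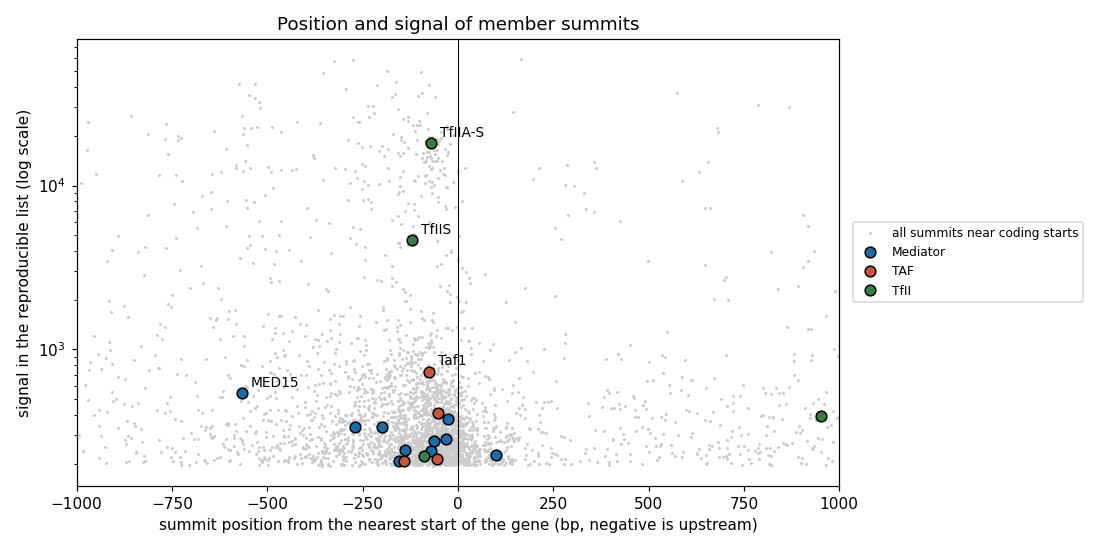
The horizontal axis is the position of a summit from the nearest start of its gene in bp, negative upstream, and the vertical axis is the signal in the reproducible list on a log scale; large points are the 18 member summits, placed from the member's own start, and grey points are the 3219 summits near coding starts, placed from the nearest coding start. Most member points lie within 200 bp upstream of the start and below a signal of 1000, with TfIIA-S and TfIIS above.

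By chromosome arm, 7 of 14 members on 3L had a summit (26.8 to 73.2%), beside 28.1% of coding genes there, and the same counts held on 3R, again beside 28.1%. On 2L it was 2 of 8 beside 25.4%, and on 2R 1 of 5 beside 27.4%. Each of these arm shares lay inside the members' interval for that arm. Neither of the 2 members on chromosome 4, MED26 and Taf3, had a summit, beside 16.3% of coding genes there, nor did any of the 5 on X. The X genes were MED18, MED22, Taf8, Taf9 and TfIIA-S-2. A count of 0 of 5 allows a share of up to 60.0% by the rule of 3 counts, and up to 43.4% by the Wilson interval. On X 27.9% of coding genes had a summit, so the absence there was within counting error.

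The replicates ordered the member summits alike where the signal was high and less so where it was low. Both had a summit within 100 bp for 17 of the 18 (94.4%), beside 95.2% of summits near coding starts. Since the list was thresholded on agreement, this share is partly set by how it was made. Over these 17 the log2 ratio of the replicates, 3 over 2, had a median of 0.08 and an SD of 0.47 (range −0.89 to 0.85), beside a median of 0.07 and an SD of 0.45 near coding starts. Replicate 3 was higher at 12 and lower at 5, beside 1815 higher and 1249 lower near coding starts. Among the 10 matched member summits outside the 2721 strongest peaks the SD was 0.60, beside 0.53 for such summits near coding starts.

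**Figure D4:**
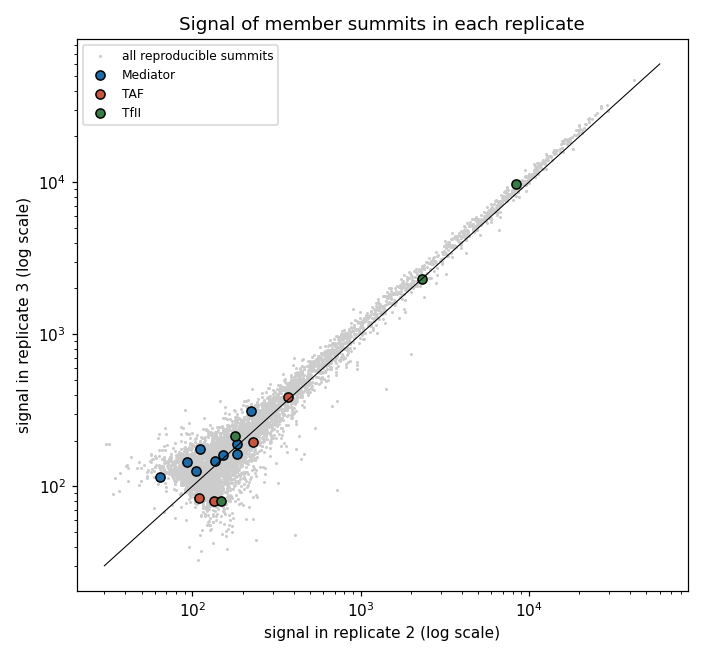
Each point is a reproducible summit with its signal in replicate 2 (horizontal) and replicate 3 (vertical), both on log scales; grey points are all reproducible summits matched in both replicates, large points are the 17 matched member summits, and the line marks equal values. TfIIA-S, TfIIS and Taf1 lie close to the line, and the weaker member summits scatter on both sides of it, from −0.89 at TfIIEalpha to 0.85 at MED31 in log2 ratio.

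With only 1 replicate's strongest peaks, cut to the same number, the count of members hardly moved but its makeup did. Replicate 2 alone gave 17 members and replicate 3 alone gave 16, against 27.2% of coding genes in each, and each kept 14 of the 17. Without replicate 3, MED19, MED31 and MED4 lost their summit, and MED25, MED27 and Taf4 gained one. Without replicate 2, Taf2, Taf5 and TfIIEalpha lost theirs, and MED27 and TfIIFalpha gained one, so the Taf count fell from 4 to 2. The 6 members lost under either setting were all among the 7 with the lowest signals, from 208 to 243.

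Most of the 31 members without a reproducible summit still had a weaker one. The relaxed lists, which the authors made as input to the IDR step with a fixed length of close to 30000 peaks, hold many weak peaks. Of the 31, 19 had a summit within 1 kb of a start in the relaxed lists of both replicates (61.3%), against 39.4% of coding genes without a reproducible summit. In the pooled relaxed list 24 of the 31 had one, with signals from 55.3 to 193 and a median of 119, all under the lowest reproducible signal of 195. Over all 48 members the pooled relaxed list gave 41 (85.4%, 72.8 to 92.8%), against 62.0% of coding genes.

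Highest among these were TfIIFalpha at 193 and MED27, a tail subunit, at 192, which lay just under the reproducible list. For members without a reproducible summit, the value of each list is its strongest summit within 1 kb of a start. These were not matched within 100 bp, so the values of the 2 replicates may come from different peaks. TfIIFalpha read 74.9 in replicate 2 and 121 in replicate 3, and MED27 read 102 and 104. Then came Taf4, the histone-fold partner of Taf12, at 190, MED25, a tail subunit that activators bind, at 186, and Taf7, which binds Taf1, at 172. Taf4 read 112 in replicate 2 and 77.2 in replicate 3, MED25 read 115 and 88.4, and Taf7 read 75.4 and 92.7. The nearest reproducible summit to any of these 5 was 6135 bp away, at MED27.

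Another 14 members also had a summit in both replicates' relaxed lists, at lower pooled signal. Of the Taf genes, Taf11 read 146 in the pooled list, Taf8 143, Taf10 137, Taf13 120 and Taf9 118, and of the TfII genes TfIIEbeta, the small TFIIE subunit, read 117. The Mediator tail genes MED16 and MED23 read 123 and 121. The head genes MED22, MED18, MED11 and MED8 read 112, 100.5, 93.7 and 80.1, and the middle genes MED9 and MED1 read 93.7 and 66.2. In single replicates these 14 lay between 42.4 (MED1) and 91.8 (Taf10) in replicate 2 and between 33.9 (MED9) and 88.1 (Taf8) in replicate 3. Replicate 3 was the higher one at MED1, MED11, Taf8, Taf9, Taf11 and TfIIEbeta, and replicate 2 at the others.

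Of the replicates, only replicate 2 had a relaxed summit near MED20, MED24, MED26, MED7, Taf3 and Taf6, and only replicate 3 near TfIIA-L and TfIIB. The pooled relaxed list also had one near TfIIA-L (143), TfIIB (95.7), MED7 (80.3), MED26 (62.3) and Taf3 (55.3). It had none near MED20, MED24 or Taf6. In no relaxed list was there a summit near MED21, Taf12L, TfIIA-S-2 or TfIIFbeta. These 4 are 8.33% of the members, beside 30.6% of coding genes. MED21, a middle subunit, was the most remote, with its nearest reproducible summit 351071 bp away. The start of MED20 is 47 bp from that of Trf, a TATA-binding protein relative, and the start of Taf10 is 45 bp from that of its paralogue Taf10b, and neither MED20 nor Taf10 had a reproducible summit within 1 kb.

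The CTCF core was not found at the members. None of the 18 member summits held an exact core within 50 bp, which allows a share of up to 16.7%, beside 6.62% of the 3219 summits near coding starts, so at this number of summits no difference was detectable. With 1 mismatch allowed the only match within 50 bp was at the main TfIIA-S summit, printed above, beside 16.3% of summits near coding starts. The strong TfIIS summit had none. A missing match says only that these letters are not in the window.

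Promoter elements within 50 bp of the member summits were read beside those of all summits near coding starts. The DRE lay within 50 bp of the MED28 summit only, in copies centred 3 bp and 32 bp from it, beside 4.47% of summits near coding starts. Motif 1 (GGTCACAC) lay within 50 bp of the MED10 summit only, beside 3.98%. Matches to TATAAA were at Taf12 and Taf5 (13.1% near coding starts), to the initiator letters TCAGT at MED19 and Taf12 (16.6%), to GAGAG at TfIIA-S (11.0%), and to the E-box CAGCTG at none (7.15%).

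Whole promoters, taken as 250 bases before to 50 after the start farthest upstream, gave larger counts. Motif 1 was in 12 of 48 member promoters (25.0%), beside 7.71% of all coding promoters: Taf1, Taf4, Taf5, MED8, MED10, MED11, MED15, MED19, MED20, MED22, MED23 and MED24. The DRE was in 8 (16.7%), beside 9.37%: Taf3, MED7, MED8, MED9, MED17, MED18, MED25 and MED28. Of the Motif 1 promoters 5 of the 12 had a CTCF-GFP summit, beside 44.8% of the 1075 coding genes with Motif 1 in the promoter. Of the DRE promoters 2 of the 8 did, beside 41.7% of 1306. Neither count stands apart from its background at these numbers. By contrast TCAGT was in 12 member promoters (25.0%) against 51.6%, GAGAG in 8 (16.7%) against 29.8%, CAGCTG in 6 (12.5%) against 17.7% and TATAAA in 22 (45.8%) against 45.9%. No member promoter held the exact CTCF core, which allows up to 6.25%, beside 0.997% of all coding promoters. With 1 mismatch allowed, 5 member promoters did (10.4%), beside 11.4%: those of TfIIA-S, MED6 and MED19, which had a summit, and of Taf10 and MED7, which had none. Searches covered both strands, and none of the words searched contains another.

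Partners of these complexes that carry other symbols were read in the same way, as context. Of the 4 genes of the Mediator kinase module only CycC, the cyclin partner of Cdk8, had a summit, with a signal of 233, and ix, the fly MED29, had none. Of the 3 genes of the TATA-binding protein family Trf2 had 2 summits, the stronger at 312, and Tbp and Trf had none. TFIIH had 2 of 10 genes with a summit, Ssl1 at 998 and Mat1 at 321, and RNA polymerase II had 3 of 12, Polr2F at 312, Polr2I at 304 and Polr2B at 233. The SAGA coactivator, which shares TAFs with TFIID, had 4 of 15: the acetyltransferase gene Gcn5 at 552, Spt7 at 368, Ada2b at 331 and Sgf11 at 201. The testis-specific TAF homologues had 0 of 4 found, which allows up to 75%. Genes of pausing and elongation had 8 of 16 (50%), led by Nelf-A, a subunit of the negative elongation factor, at 16764 (rank 174), close to TfIIA-S in rank, followed by atms (Paf1) at 1122, Nelf-E at 596 and dre4 at 519. These lists are small, and the share of all coding genes, 27.3%, stands beside each of them.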

How the data were processed

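CTCF-GFP was immunoprecipitated and sequenced in 2 biological replicates of whole embryos, and the deposited peak lists on dm6 were the starting point. The signal of each peak is a score that the authors' peak caller gave, with no scale stated per the file headers. The authors deposited relaxed peaks for each replicate and for the pooled replicates, which fed the irreproducible discovery rate step that gave the reproducible list. The aligner, the caller and read depth were not given in the sources used here. The control library and the dm3 lists were not used here, and no coordinates were converted.

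Transcript starts came from the BDGP6 annotation of Ensembl release 115, and sequences from the RefSeq genome of the same build. All 48 member gene spans were the same in the RefSeq gene table. A summit counted for every gene with a start within 1 kb, and a replicate's summit was matched within 100 bp. Motif searches covered 50 bp on either side of a summit, both strands. Shares carry 95% Wilson intervals, and the limit for a count of 0 is 3 counts of the total, which is only rough where the total is small. With 1 group of 2 samples no test across samples was made. The members, gene lists, motifs and alternatives were chosen with earlier results of these data known. Every member with a reproducible summit was named with its values, the other members with their status in the relaxed lists, and of each context list up to 4 genes with the highest signal. Of the context names, rye was not matched, and Tfb2 and mrn name the same gene, counted once. Alternatives were other distances, the 2721 strongest peaks, each replicate alone, the pooled relaxed list, interval overlap, the start farthest upstream, merged peaks, and, chosen after the data were seen, the nearest start only. The distance and motif steps passed 3 checks on planted data. Summits planted near the starts of randomly picked genes were all called, and motifs planted in random sequence were all found. With those planted summits, the calls for all 13945 genes equalled a direct search. The tools were numpy 2.4.6, pandas 2.3.3, scipy 1.17.1 and matplotlib 3.10.9 under Python 3.11.15.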

Additional observations from a re-analysis of the deposited data

How the results depend on the processing

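The count of 17 member genes moved by more than 1.5 times in 3 settings: it was 6 with the 2721 strongest peaks, 41 with the pooled relaxed list and 7 with the nearest start only, the last chosen after the data were seen. The share of all coding genes, 27.3%, moved as far in 3 settings, to 17.5% at 200 bp, 12.8% with the 2721 strongest peaks and 62.0% with the pooled relaxed list. In each setting with the reproducible list at 1 kb, 500 bp or 2 kb, the background lay inside the members' interval. Leaving out a replicate gave 16 to 17 members (background 27.2% each time), 9 to 11 Mediator genes, 2 to 5 Taf genes and 3 TfII genes. Interval overlap and merged peaks both gave 17 members, and using only the start farthest upstream gave 16, without MED6.

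No exact CTCF core lay within 50 bp or 100 bp of a member's summit, and 1 was found with 1 mismatch. Members matched in both replicates were 16 at 100 bp, 14 at 50 bp and 17 at 200 bp, and the median log2 ratio was 0.08, 0.10 and 0.09. No paired analysis was possible because all samples belong to 1 group. Read depth was unknown, so its limit on the weak summits could not be set, and 2 replicates allow no test.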
